A study of Mus musculus with 2 samples.

Results

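The globin and red cell genes described here are 9 genes chosen by symbol among the 55536 mouse genes of the deposited tables. They are the adult beta-globin genes Hbb-bs and Hbb-bt, the adult alpha-globin genes Hba-a1 and Hba-a2, the embryonic globin genes Hbb-y, Hbb-bh1 and Hba-x, and the red cell genes Alas2 and Slc4a1. All 9 were found, with 21 annotated transcripts. They had been picked with their levels and their difference between the libraries already known, so both are given as descriptions, with no test. Total RNA was measured in hearts of male B6CASTF1/J mice, the F1 hybrid of C57BL/6J and CAST/EiJ, at 4 days of age, with no treatment named. There is 1 group of 2 libraries, called replicate 2 and replicate 1, each made from 300 ng of RNA as a stranded library with ribosomal RNA reduced and spike-in RNAs added. The labels give the replicates different animal numbers and tissue records but the same donor record. If both came from 1 animal, no SD below measures variation between animals. Whether blood was rinsed from the hearts is not given in the sources used here.

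Hemoglobin is a tetramer of a pair of alpha-type and a pair of beta-type globin chains, each holding a heme, and it fills the cytoplasm of red cells. Its genes lie in an alpha cluster and a beta cluster, in which embryonic genes are used first and adult genes later in development. Reticulocytes, the youngest red cells in the circulation, still carry globin mRNA, and within the red cell lineage ALAS2 starts heme synthesis while SLC4A1, or band 3, exchanges anions across the membrane.

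The copies within each adult pair are close to identical in coding sequence, which limits how far reads can be assigned to them. Over the 444 bases of coding sequence, Hbb-bt matched Hbb-bs at 443 bases (99.8%). The embryonic Hbb-y and Hbb-bh1 matched Hbb-bs at 330 and 329 bases (74.3% and 74.1%). The stretch from coding base 385 to the stop codon at base 444 is shown from the GENCODE M21 transcripts. It holds the base at position 417, the only coding base that separates the adult copies. Capitals mark bases that differ from Hbb-bs.
Hbb-bs: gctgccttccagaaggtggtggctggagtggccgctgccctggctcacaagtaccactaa
Hbb-bt: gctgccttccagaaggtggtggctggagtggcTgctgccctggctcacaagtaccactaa
Hbb-y: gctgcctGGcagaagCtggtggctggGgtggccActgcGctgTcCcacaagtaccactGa
Hbb-bh1: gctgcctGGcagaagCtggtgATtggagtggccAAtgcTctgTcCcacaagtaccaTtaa

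The adult alpha pair was as close. Hba-a2 matched Hba-a1 at 428 of 429 coding bases (99.8%), with the difference at position 381. The embryonic Hba-x matched Hba-a1 at 266 of 429 bases (62.0%). Coding bases 352 to 411 hold the differing base, and capitals mark bases that differ from Hba-a1.
Hba-a1: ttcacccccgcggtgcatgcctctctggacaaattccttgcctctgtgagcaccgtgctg
Hba-a2: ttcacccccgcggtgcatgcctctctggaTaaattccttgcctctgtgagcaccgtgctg
Hba-x: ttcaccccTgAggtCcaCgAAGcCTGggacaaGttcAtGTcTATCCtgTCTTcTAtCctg

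Whole transcripts also shared much of their sequence. Of the 455 windows of 100 bases in Hba-a2-201, 339 (74.5%) also occur letter for letter in Hba-a1-201. In the other direction the share was 56.5% of 600 windows. For the beta pair it was 62.6% of the 529 windows of Hbb-bs-201 found in Hbb-bt-201, and 54.8% of 604 windows the other way. Values for either copy of a pair are therefore uncertain, while counts summed over a pair do not depend on how reads were split within it.

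Promoters are shown for 4 members, since the adult globins and Alas2 differed together between the libraries and Hbb-y stayed near 0. RefSeq promoters on GRCm38.p6 were matched for 7 of the 9 members, with Hbb-bh1 and Slc4a1 unmatched. Stretches up to 120 bases before the RefSeq start are printed 5′ to 3′ on the gene's strand, without bases that GENCODE M21 places in an exon of the same gene. Capitals mark matches on either strand to any of 5 motifs, of which the last was added after the sequences had been seen. AGATAA is a site of GATA factors, CACACCC is a form of the box bound by KLF1, CCAAT is a common promoter box, and ATAAA and the added ATATAA are forms of the TATA box.
Hbb-bs, chr7:103827929-103828011, minus strand: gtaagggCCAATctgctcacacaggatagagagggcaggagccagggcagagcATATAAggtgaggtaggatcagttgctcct
Hba-a2, chr11:32296372-32296488, plus strand: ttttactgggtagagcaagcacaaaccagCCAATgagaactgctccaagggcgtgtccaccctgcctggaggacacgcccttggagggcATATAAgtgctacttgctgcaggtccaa
Hbb-y, chr7:103853217-103853327, minus strand: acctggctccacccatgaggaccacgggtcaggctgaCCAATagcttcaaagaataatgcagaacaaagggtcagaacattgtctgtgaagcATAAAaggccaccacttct
Alas2, chrX:150547297-150547374, plus strand: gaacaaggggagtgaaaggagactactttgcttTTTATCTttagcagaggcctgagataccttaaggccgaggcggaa

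In the 250 bases before the start, CCAAT was found on either strand in 5 of the 7 members, against 33.8% of 32851 promoters of that length. ATATAA was found in 5 of 7, against 9.10% of promoters, but nothing is read from that contrast, because this motif was added after the sequences had been seen. ATATAA began 30 bases before the start of Hbb-bs and 31 bases before that of Hba-a2, while in Hbb-bt and Hba-x it overlapped the shorter TATA form. That form, ATAAA, was found in 4 of 7, against 37.3% of promoters. The motif CACACCC was found in Hbb-bs alone, 92 bases before the start and upstream of the printed stretch, against 6.93% of promoters. AGATAA occurred in Hbb-bs, 210 bases before the start, and on the reverse strand in Alas2, 86 bases before the start, where it overlaps the shorter TATA form, against 9.99% of promoters. The promoters of Hba-a1 and Hba-a2 were identical over all 297 bases that could be aligned at a shift of 3 bases, so their matches are not separate observations. A match is a run of letters and not a binding site.

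Mouse genes held 35744013 expected counts in replicate 2 and 31512596 in replicate 1. Expected counts are read counts in which reads that match several transcripts are shared out, and TPM is a level per length of transcript, scaled to the same total in every library. Both come from the first quantification, which was derived from alignments to transcripts, and a second quantification of the same libraries used an index and gave 35389170 estimated counts in replicate 2 and 31811445 in replicate 1. Heart muscle markers were high in both, with Myh6, the main heart myosin, at 7208 TPM in replicate 2 and 8663 TPM in replicate 1. Among the 16271 genes that passed the filter on low counts, the median log2 ratio of replicate 2 over replicate 1 was -0.0033, and 49.6% were higher in replicate 2.

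Adult beta globin came mostly from Hbb-bs (chromosome 7, 103826534 to 103828096, minus strand, mm10), which encodes the beta chain of adult hemoglobin. Hbb-bs had 1886 TPM in replicate 2 and 471 TPM in replicate 1, a mean of 1179 ± 1001 TPM (SD, n = 2). These rest on 28534 expected counts in replicate 2 and 6022 in replicate 1. The SD is nearly as large as the mean, and replicate 2 held the higher value. Among 22015 nuclear protein-coding genes, Hbb-bs ranked 14 by TPM in replicate 2 and 108 in replicate 1.

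Hbb-bt (chromosome 7, 103812524 to 103813996, minus strand) is the companion adult beta gene. It had 227 TPM in replicate 2 and 75.1 TPM in replicate 1, a mean of 151 ± 107 TPM (SD, n = 2), from 3949 expected counts in replicate 2 and 1102 in replicate 1. It ranked 294 in replicate 2 and 960 in replicate 1. Its level lay below that of Hbb-bs in each library.

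The adult alpha genes stood near each other by the first quantification. Hba-a1 (chromosome 11, 32283511 to 32284465, plus strand) had 1642 TPM in replicate 2 and 461 TPM in replicate 1, a mean of 1051 ± 835 TPM (SD, n = 2). Hba-a2 (chromosome 11, 32296489 to 32297298, plus strand) had 1509 TPM in replicate 2 and 391 TPM in replicate 1, a mean of 950 ± 791 TPM (SD, n = 2). Hba-a1 was above Hba-a2 in each library, by less than the spread between libraries. Their ranks were 15 and 16 in replicate 2, directly after Hbb-bs, and 113 and 156 in replicate 1.

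**Figure D1:**
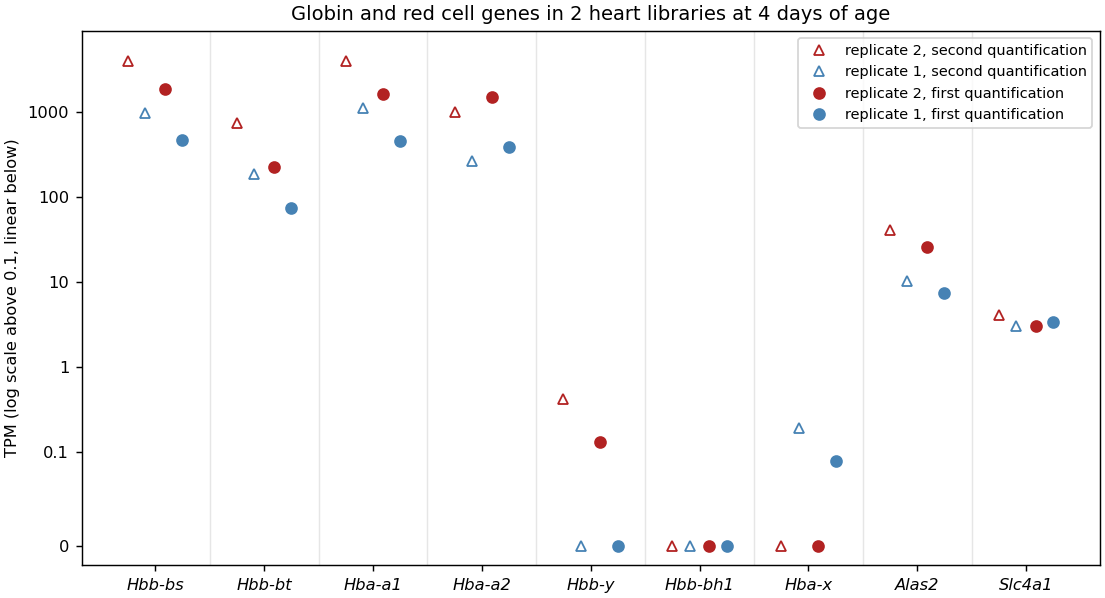
TPM of the 9 genes (y axis, log scale above 0.1 and linear below) in replicate 2 (red) and replicate 1 (blue), with triangles for the second quantification and circles for the first. The 4 adult globins and Alas2 lie higher in replicate 2 by both quantifications, Slc4a1 lies between 3.02 and 4.14 TPM in all 4 values, and the 3 embryonic globins lie at 0.422 TPM or less.

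The 4 adult globins together held 5264 TPM in replicate 2 and 1398 TPM in replicate 1, a mean of 3331 ± 2734 TPM (SD, n = 2). With the embryonic genes included, globin took 0.531% of mouse-gene TPM in replicate 2 and 0.141% in replicate 1. As a share of expected counts it took 0.221% (95% exact binomial interval 0.220 to 0.223) in replicate 2 and 0.0568% (0.0559 to 0.0576) in replicate 1. The intervals do not overlap, but they cover counting error only. They also make no allowance for PCR copies of a molecule, which are counted as separate reads. For scale, adult globin TPM was 1.74 times that of Mb, the myoglobin gene that stores oxygen in heart muscle, in replicate 2, and 0.418 times it in replicate 1. Mb itself had 3030 TPM in replicate 2 and 3341 TPM in replicate 1. In bulk tissue, fewer cells of a type and less RNA per cell cannot be told apart.

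The balance between the chains was close in the libraries while their sum was not. Alpha globin summed to 3151 TPM in replicate 2 and 852 TPM in replicate 1, and beta globin to 2113 TPM in replicate 2 and 546 TPM in replicate 1. The alpha over beta ratio was 1.49 (log2 0.58) in replicate 2 and 1.56 (log2 0.64) in replicate 1. Its mean log2 value was 0.61 ± 0.045 (SD, n = 2). The excess of alpha was smaller by the second quantification, with log2 values of 0.11 in replicate 2 and 0.26 in replicate 1. On counts the quantifications lay nearer, with log2 values of 0.52 in replicate 2 and 0.60 in replicate 1 by the first. By the second the count values were 0.39 in replicate 2 and 0.57 in replicate 1. Alpha was thus above beta in both libraries by both quantifications, by an amount that rests on the quantification and the unit.

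The division within each pair also rests on the quantification. Hbb-bs held 84.2% of adult beta TPM in replicate 2 and 84.0% in replicate 1 by the second quantification, against 89.3% in replicate 2 and 86.2% in replicate 1 by the first. In TPM the beta pair thus kept the same order and a similar division. In counts the quantifications lay further apart, with Hbb-bs at 78.9% in replicate 2 and 78.3% in replicate 1 by the second. By the first its share of counts was 87.8% in replicate 2 and 84.5% in replicate 1. Hba-a1 held 79.9% of adult alpha TPM in replicate 2 and 81.0% in replicate 1 by the second quantification, against 52.1% in replicate 2 and 54.1% in replicate 1 by the first. For the alpha pair the libraries lay close together within a quantification and the quantifications lay far apart. How far Hba-a1 exceeded Hba-a2 thus depended on the quantification, and the cause was not tested.

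**Figure D2:**
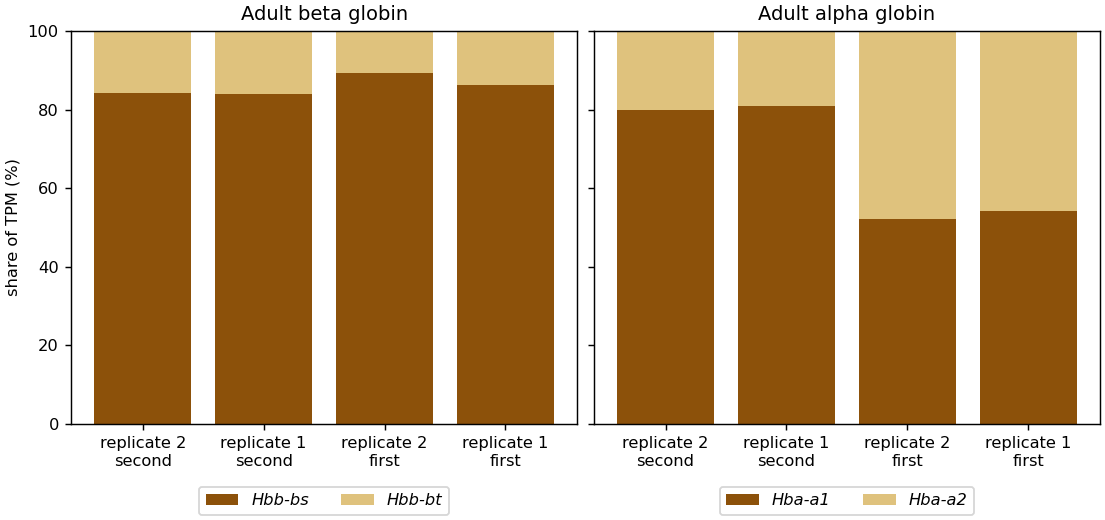
Share of TPM (y axis, %) taken by each copy of the adult beta pair (left) and the adult alpha pair (right), in replicate 2 and replicate 1 by the second and the first quantification. The beta bars stay between 84.0% and 89.3% Hbb-bs, and the alpha bars stand at 79.9% and 81.0% Hba-a1 by the second quantification and at 52.1% and 54.1% by the first.

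The embryonic globins were at or near 0. Hbb-y (chromosome 7, 103851749 to 103853216, minus strand), the embryonic beta-type chain, had 2 expected counts in replicate 2 and 0 in replicate 1, which is 0.13 TPM in replicate 2. Hba-x (chromosome 11, 32276400 to 32278116, plus strand), the embryonic alpha-type chain zeta, had 0 counts in replicate 2 and 1 in replicate 1, which is 0.09 TPM in replicate 1. Hbb-bh1 (chromosome 7, 103841637 to 103843164, minus strand), also an embryonic beta-type gene, had 0 counts in both libraries by both quantifications. No embryonic gene passed the filter on low counts, and none reached 3 expected counts in either library.

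Set against all globin counts, the embryonic genes held 2 of 79172 in replicate 2, a share of 0.00253% (95% exact binomial interval 0.000306 to 0.00913). In replicate 1 they held 1 of 17886, a share of 0.00559% (0.000142 to 0.0311). These intervals overlap, cover counting error only and rest on 2 counts and 1 count. A difference in the embryonic share was not tested, and none is read from these values. A count of 0 allows up to 3 counts, which for Hbb-bh1 is 0.203 TPM in replicate 2 and 0.240 TPM in replicate 1.

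Alas2 (chromosome X, 150547375 to 150570638, plus strand), whose enzyme starts heme synthesis in the red cell lineage, had 25.7 TPM in replicate 2 and 7.44 TPM in replicate 1. Its mean was 16.6 ± 12.9 TPM (SD, n = 2), from 1286 expected counts in replicate 2 and 316 in replicate 1. Adult globin TPM was 205 times that of Alas2 in replicate 2 and 188 times it in replicate 1. By the second quantification those quotients were 235 in replicate 2 and 249 in replicate 1, so the order of the libraries turned with the quantification.

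Slc4a1 (chromosome 11, 102348824 to 102366203, minus strand), the band 3 anion exchanger of the red cell membrane, did not share the pattern of Alas2 and the adult globins. It had 3.02 TPM in replicate 2 and 3.42 TPM in replicate 1, a mean of 3.22 ± 0.28 TPM (SD, n = 2), from 240 expected counts in replicate 2 and 187 in replicate 1. Adult globin TPM was 1743 times that of Slc4a1 in replicate 2 and 409 times it in replicate 1. By the second quantification it was 2360 times in replicate 2 and 831 times in replicate 1, so the gap between the libraries was smaller. Among nuclear protein-coding genes it ranked 10232 in replicate 2 and 10256 in replicate 1.

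Between the libraries, 6 of the 9 members passed the filter and 5 of those 6 were over 2-fold higher in replicate 2, with none over 2-fold lower. Over all 16271 filtered genes 0.842% were over 2-fold higher and 2.22% over 2-fold lower. The members were chosen with this difference known, so nothing is read from that contrast. The log2 ratios of scaled counts, replicate 2 over replicate 1, were 2.13 for Hbb-bs, 2.08 for Hba-a2, 1.95 for Hba-a1, 1.90 for Alas2 and 1.72 for Hbb-bt. Summed adult globin counts were 79170 in replicate 2 and 17885 in replicate 1, which after scaling is a 4.08-fold difference (log2 2.03, 95% counting interval 2.01 to 2.05). Ranked by this ratio among the 12062 genes averaging 100 counts or more, Hbb-bs stood 5, Hba-a2 6, Hba-a1 9, Alas2 10 and Hbb-bt 13.

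Slc4a1 had a log2 ratio of 0.24, with a counting interval of -0.04 to 0.53 that includes 0, and ranked 1925. By the second quantification the same number passed its filter, 5 of 6 over 2-fold higher and none over 2-fold lower, beside 0.862% and 2.5% of the 17638 genes that passed there, and Slc4a1 had a log2 ratio of 0.32. Its sign turned with the unit, at 0.24 on scaled counts and -0.17 on TPM with a pseudocount of 0.1. Hbb-bt stood below Hbb-bs by the first quantification, with counting intervals of 1.63 to 1.82 for Hbb-bt and 2.09 to 2.17 for Hbb-bs. By the second quantification the ratios of these copies were 2.08 for Hbb-bt and 2.13 for Hbb-bs, and the gap between them was smaller.

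**Figure D3:**
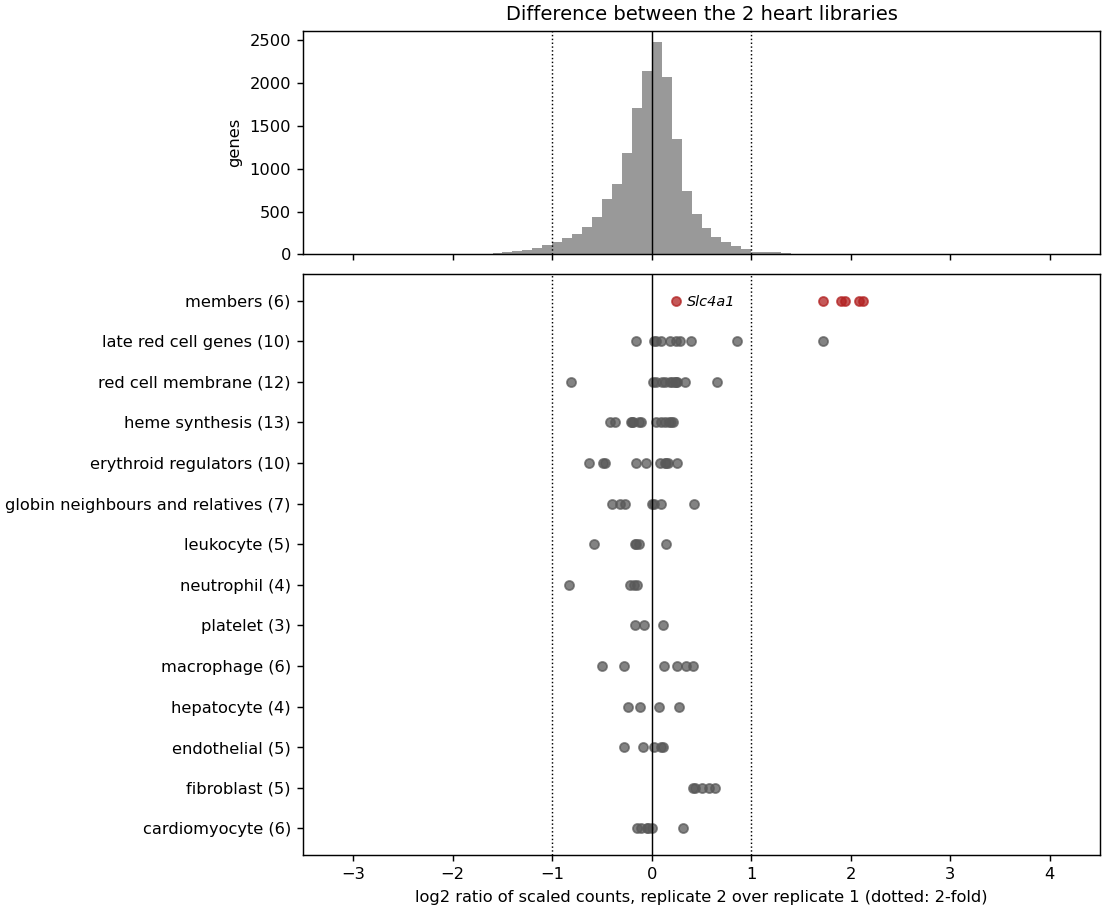
Log2 ratio of scaled counts, replicate 2 over replicate 1 (x axis, with 2-fold marked by dotted lines), as a histogram over all 16271 filtered genes (top) and as points for the members and for the genes of each list that passed the filter, with their number in brackets (bottom). The adult globins and Alas2 lie between 1.72 and 2.13, and Slc4a1 lies at 0.24. Of the 45 filtered genes in the 4 other red cell lists 1 lies past 2-fold, beside 0.842% of all filtered genes higher and 2.22% lower.

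The rest of the red cell programme was examined in 4 lists, of heme synthesis, the red cell membrane, erythroid regulators and late red cell genes. Of 60 listed genes 59 were matched, 38 reached 1 TPM in each library and 45 passed the filter. Of those 45, 31 were higher in replicate 2, 1 was over 2-fold higher and none was over 2-fold lower. Over all 16271 filtered genes 49.6% were higher, 0.842% over 2-fold higher and 2.22% over 2-fold lower, and these shares are the background for each list below. The median log2 ratio of the 45 was 0.10, beside -0.0033 for all filtered genes.

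No gene of the heme synthesis list was over 2-fold apart between the libraries. All 13 passed the filter, 6 were higher in replicate 2 and the median log2 ratio was -0.11. The highest was Alas1, the housekeeping counterpart of Alas2, with 178 TPM in replicate 2 and 221 TPM in replicate 1 and a log2 ratio of -0.20. Alas1 was thus several times the level of Alas2 in both libraries. Tmem14c, a porphyrin carrier of the mitochondrion, had 76.1 TPM in replicate 2 and 80.5 TPM in replicate 1.

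Of the 16 membrane genes 12 passed the filter. Of these, 11 were higher in replicate 2, beside 49.6% of all filtered genes, none over 2-fold, with a median log2 ratio of 0.19. The highest were Ank1, the ankyrin that ties band 3 to the spectrin skeleton, with 64.5 TPM in replicate 2 and 55.0 TPM in replicate 1, and the water channel Aqp1, with 41.5 TPM in replicate 2 and 38.6 TPM in replicate 1. Epb41, protein 4.1 of the same skeleton, had 37.0 TPM in replicate 2 and 33.7 TPM in replicate 1. Some of these genes are also used outside red cells, as Aqp1 is in blood vessel walls.

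Of the 13 erythroid regulators 10 passed the filter, 5 of them were higher in replicate 2, none was over 2-fold apart and the median was 0.02. The highest were Ldb1, Zfpm1 and Sox6, at 34.2, 19.7 and 14.1 TPM in replicate 2 and 40.6, 22.0 and 19.0 TPM in replicate 1. The defining red cell factors were near 0. Gata1 had 3 expected counts in replicate 2 and 0 in replicate 1, and Klf1 had 2 in replicate 2 and 9 in replicate 1.

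The 1 listed gene past 2-fold was a late red cell gene. Of 18 listed 17 were matched and 10 passed the filter. Of these, 9 were higher in replicate 2, beside 49.6% of all filtered genes, with a median log2 ratio of 0.21. Ube2l6, an enzyme of ISG15 conjugation, had 9.68 TPM in replicate 2 and 5.87 TPM in replicate 1 and a log2 ratio of 0.86. The most abundant members were Prdx2, the peroxiredoxin of red cells, at 301 TPM in replicate 2 and 312 TPM in replicate 1, then Bnip3l at 70.9 TPM in replicate 2 and 63.5 TPM in replicate 1. Car1, a carbonic anhydrase of red cells, had 0 counts in both.

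Markers of the erythroid lineage other than the members were low. Of the 8 matched, 1 reached 1 TPM in each library and 2 passed the filter. Rhag, Epb42 and Tspo2 had 4, 7 and 3 expected counts in replicate 2 and 2, 6 and 1 in replicate 1, and Hemgn had 0 in replicate 2 and 3 in replicate 1. The label of red cell genes thus rests on the adult globins and Alas2, while most other defining markers lay near 0.

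Genes beside and related to the globins lay less than 2-fold apart where they passed the filter. Of 13 listed, 7 passed the filter, 3 were higher in replicate 2 and the median log2 ratio was 0.00. Nprl3, whose introns carry the enhancers of the alpha cluster, had 11.4 TPM in replicate 2 and 16.1 TPM in replicate 1. The related globin gene Hbb-bh2 and the pseudogenes Hba-ps3 and Hba-ps4 had 0 expected counts in both libraries by the first quantification. By the second, Hbb-bh2 stayed at 0, while Hba-ps3 had 0.718 TPM in replicate 2 and 0 TPM in replicate 1. Hba-ps4 had 0.592 TPM in replicate 2 and 0.344 TPM in replicate 1 by the second. Cygb, the cytoglobin gene, had 24.3 TPM in replicate 2 and 19.8 TPM in replicate 1.

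Summed marker TPM of other blood cells was lower in replicate 2, but scaled counts did not share this for every cell type. Median log2 ratios of filtered markers were -0.16 for leukocytes, -0.20 for neutrophils, -0.08 for platelets and 0.19 for macrophages. Leukocyte markers summed to 19.0 TPM in replicate 2 and 23.3 TPM in replicate 1, with 1 of 5 filtered markers higher in replicate 2. Neutrophil markers summed to 9.22 TPM in replicate 2 and 13.6 TPM in replicate 1, with 0 of 4 filtered markers higher and 2 of all 8. Platelet markers summed to 13.4 TPM in replicate 2 and 15.8 TPM in replicate 1, with 1 of 3 filtered markers higher but 5 of all 7. The lower platelet sum was carried by Pf4, at 9.55 TPM in replicate 2 and 12.6 TPM in replicate 1, while Gp9, Gp1bb, Tubb1 and Treml1, named after their values were seen, were higher in replicate 2 at few counts. Tubb1, the beta tubulin of platelets, had the most, at 20 expected counts in replicate 2 and 9 in replicate 1. Ptprc, the CD45 gene of white cells, had 137 expected counts in replicate 2 and 190 in replicate 1, and Pf4, a platelet chemokine, had 115 in replicate 2 and 112 in replicate 1. On scaled counts Pf4 had a log2 ratio of -0.08, with a counting interval of -0.47 to 0.31 that includes 0. Macrophage markers summed to 36.1 TPM in replicate 2 and 38.3 TPM in replicate 1, with 4 of 6 higher.

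Hepatocyte markers, examined because the liver still makes blood at this age, summed to 7.78 TPM in replicate 2 and 8.36 TPM in replicate 1, with 2 of 4 filtered markers higher and 3 of all 6, and Alb had 94 expected counts in each. Cardiomyocyte markers summed to 28796 TPM in replicate 2 and 30895 TPM in replicate 1, with 2 of 6 higher, and endothelial markers to 406 TPM in replicate 2 and 472 TPM in replicate 1, with 3 of 5 higher. Fibroblast markers were higher in replicate 2, as the adult globins were, at 1570 TPM in replicate 2 and 1151 TPM in replicate 1, with 5 of 5 higher, a median log2 ratio of 0.50 and none past 2-fold. Col3a1, Col1a1 and Postn led that list, at 693, 405 and 302 TPM in replicate 2 and 467, 309 and 252 TPM in replicate 1. The part of any of these cell types in the globin difference was not tested.

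The genes whose ratio between the libraries was nearest to that of Hbb-bs, among non-members averaging 100 counts or more, were Nr4a3, Rtn4r, Nr4a1, Irs2 and Nkd2. Their log2 ratios were 2.15, 2.06, 1.96, 1.88 and 1.76. Nr4a1, an immediate-early nuclear receptor gene, had 20.2 TPM in replicate 2 and 6.79 TPM in replicate 1, and Irs2, an insulin receptor substrate gene, had 16.6 TPM in replicate 2 and 4.91 TPM in replicate 1. Likeness here is a ratio over 2 libraries, and any gene with that ratio meets it.

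Each globin gene has 3 exons in its main coding form, against 11 in Alas2-201 and 20 in Slc4a1-201. The main coding form led in both libraries and both quantifications for all 6 members that passed the filter. Hba-a2-201 and Hbb-bt-201 held 100% of their gene's TPM throughout.

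Hbb-bs-201 held 80.5% of Hbb-bs TPM in replicate 2 and 78.3% in replicate 1 by the second quantification, against 98.6% in replicate 2 and 98.9% in replicate 1 by the first. The remainder by the second went to Hbb-bs-203, a coding form with another first exon, at 773 TPM in replicate 2 and 212 TPM in replicate 1. By the first quantification Hbb-bs-203 had 1.07 TPM in replicate 2 and 0 in replicate 1. Of the 308 windows of 100 bases in Hbb-bs-203, 72.7% also lie in Hbb-bs-201. The share found in Hbb-bt-201, of the other gene, was 72.7% as well.

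Hba-a1-202, a form with a retained intron, held 0% of Hba-a1 TPM in both libraries by the second quantification, against 15.2% in replicate 2 and 11.9% in replicate 1 by the first. The corresponding form of the other copy, Hba-a2-202, had 0 counts by both. These forms share 75.7% of the 395 windows of 100 bases in Hba-a1-202. The quantifications thus differ on whether reads of this intron-holding form were present.

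Alas2-201 held 67.7% of Alas2 TPM in replicate 2 and 70.1% in replicate 1 by the second quantification, against 74.2% in replicate 2 and 66.5% in replicate 1 by the first. Alas2-204, a short form with no coding sequence, held 32.3% in replicate 2 and 18.9% in replicate 1 by the second, against 12.4% in replicate 2 and 10.7% in replicate 1 by the first. Slc4a1-201 held 58.4% of Slc4a1 TPM in replicate 2 and 69.1% in replicate 1 by the second, against 59.7% in replicate 2 and 47.6% in replicate 1 by the first. By expected counts the leading form of Slc4a1 took nearly all, with 231 of 240 counts in replicate 2 and 176 of 187 in replicate 1, and the rest of its TPM was held by short forms with few counts.

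**Figure D4:**
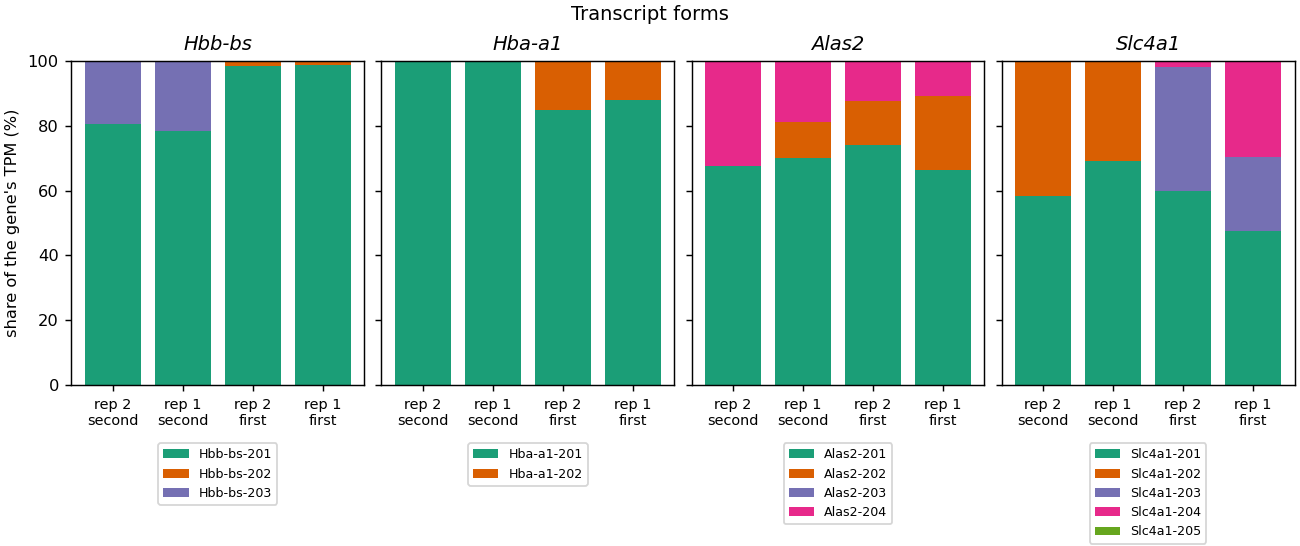
Share of each gene's TPM (y axis, %) taken by its annotated transcripts, for the 4 members with more than 1 detected form, in replicate 2 and replicate 1 by the second and the first quantification. The form ending in 201 leads every bar, and the minor forms differ between the quantifications more than between the libraries for Hbb-bs and Hba-a1.

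Levels by the second quantification kept the difference between the libraries. Hbb-bs had 3962 TPM in replicate 2 and 977 TPM in replicate 1, and Hba-a1 had 4048 TPM in replicate 2 and 1125 TPM in replicate 1. Hbb-bt had 744 TPM in replicate 2 and 186 TPM in replicate 1, and Hba-a2 had 1018 TPM in replicate 2 and 264 TPM in replicate 1. Alas2 had 41.5 TPM in replicate 2 and 10.3 TPM in replicate 1, so these members were all higher in replicate 2. Slc4a1 had 4.14 TPM in replicate 2 and 3.07 TPM in replicate 1, the opposite order to its TPM by the first quantification. The second over the first quantification was 3.28-fold in replicate 2 and 2.48-fold in replicate 1 for Hbb-bt. For Hba-a1 it was 2.47-fold in replicate 2 and 2.44-fold in replicate 1, and for Hbb-bs 2.10-fold in replicate 2 and 2.07-fold in replicate 1. For Hba-a2 it was 0.675-fold in both. Thus 3 of the 9 members were over 1.5-fold higher by the second quantification in both libraries and none was over 1.5-fold lower in both.

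Over the 15568 genes compared, 25.2% were over 1.5-fold higher by the second quantification in both libraries and 4.23% over 1.5-fold lower, with a median of 1.38-fold in replicate 2 and 1.35-fold in replicate 1. Those genes had a mean TPM of at least 1 by either quantification, which the 3 embryonic globins among the members did not reach. The effective length of Hbb-bs-201 was 278 bases in replicate 2 and 287 in replicate 1 by the second quantification, against 529 by the first in both, and a shorter effective length raises TPM for the same counts. In counts the adult globins were nearer, at 71772 in replicate 2 and 16938 in replicate 1 by the second quantification, against 79170 in replicate 2 and 17885 in replicate 1 by the first. The division of those counts among the copies was less alike, with Hba-a2 at 5406 counts in replicate 2 and 1258 in replicate 1 by the second quantification, against 19781 in replicate 2 and 4320 in replicate 1 by the first.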

How the data were processed

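Gene and transcript tables of 2 heart libraries were used. Per the file headers, the authors' first tables hold expected counts, TPM, the percent of a gene's TPM held by each transcript, and bounds of a TPM interval of unstated level, in columns named as RSEM writes them. Per the file headers, the deposited tables of the second quantification hold estimated counts and their TPM, with column names of the kallisto kind. Notes deposited with the files name mm10 as build and GENCODE M21 as annotation. The aligner, tool versions and settings are not given in the sources used here. Reads of the CAST/EiJ alleles were thus counted against a C57BL/6J genome, and the effect was not tested.

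The members and lists were chosen with earlier results of these data known. Transcripts of the second quantification were summed per gene, and 86 mouse genes with no entry there stayed out of it. TPM was compared between quantifications after adding 0.1. Expected counts were rounded, filtered with filterByExpr and scaled by TMM (edgeR 4.0.16, R 4.3.3), and log ratios used a prior count of 2. DESeq2 1.42.0 size factors and spike-in totals were alternatives. Spike-ins (96, with 195742 counts in replicate 2 and 186282 in replicate 1) and 26249 other entries that name no mouse gene (1.11e-05% of counts in replicate 2 and 6.31e-06% in replicate 1) stayed out of library sizes. With 1 library against 1, ratios carry exact binomial intervals at the 95% level and no test. Floors are 3 counts, and a fold over 2 is the call. Named list genes were the 3 of highest mean TPM, fixed defining markers, genes at 0 and those past 2-fold. Not every gene that meets this rule is reported here, and Nprl3, Ube2l6, Rhag, Epb42, Tspo2 and Hemgn were named after their values were seen. The ratio step was tested on simulated data. Python 3.11.15, pandas 2.3.3, NumPy 2.4.6 and SciPy 1.17.1 did the rest. Sequences are from RefSeq (GRCm38.p6) and GENCODE M21.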

Additional observations from a re-analysis of the deposited data

How the results depend on the processing

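No paired analysis was possible because the labels give 1 group. Leaving out either replicate leaves the value of the other, so the summed adult globin level ranged over 1398 to 5264 TPM, the globin share of the library over 0.141 to 0.531%, the alpha over beta log2 ratio over 0.58 to 0.64, the Hbb-bs share over 86.2 to 89.3%, the Hba-a1 share over 52.1 to 54.1%, the embryonic share over 0.00247 to 0.00644% and the median leading-transcript share over 84.8 to 88.1%. Replacing the first quantification by the second gave a mean adult globin sum of 6162 TPM, a globin share of 0.623%, an alpha over beta log2 ratio of 0.18, an Hbb-bs share of 84.1%, an Hba-a1 share of 80.5% and a median leading-transcript share of 79.4%, each outside 1 SD of the value reported. Over nuclear protein-coding genes alone, the sum was 7640 TPM and the share 0.764%. Expected counts in place of TPM gave an alpha over beta log2 ratio of 0.56 and an Hba-a1 share of 58.7%. The log2 ratio of summed adult globin between the libraries, 2.03, was 2.07 with spike-in scaling, which moves the median of all genes by 0.04, and 1.91 on TPM with a pseudocount of 0.1 or 1. The 1 red cell list gene over 2-fold higher became 2 with no filter, and the 0 over 2-fold lower became 4 with no filter and 1 on TPM with a pseudocount of 0.1. With no filter Gata1 was added above and Klf1, Alox15, Hemgn and Trim58 below, and on TPM Epor was added below. For named members under the alternatives that keep both libraries, 22 of 36 log2 ratios stayed within their counting interval, and 13 of 27 mean TPM values and 2 of 5 transcript shares were equal or stayed within 1 SD. Values without either replicate are not counted there, since with 2 libraries each lies within 1 SD of the mean by construction. None of these with a call changed sign, and Slc4a1, which had no call, ranged over -0.17 to 0.32. Depth limits the embryonic genes to floors of 0.0839 CPM in replicate 2 and 0.0952 CPM in replicate 1, and with 2 libraries of 1 group no difference here could be tested. The causes of these changes were not tested.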

Other observations

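The deposited interval of TPM did not hold the TPM itself for 4 of the 9 members in replicate 2 and 2 of 9 in replicate 1. For Hbb-bs in replicate 2 the TPM was 1886 and the bounds were 1820 and 1868, and for Hba-a1 in that library the TPM was 1642 and the bounds were 1570 and 1636. The deposited posterior mean TPM lay within these bounds in both libraries for 9 of the 9 members, at 1844 for Hbb-bs and 1602 for Hba-a1 in replicate 2, so the interval goes with that estimate and not with the TPM used here. The level of the interval is not given in the sources used here.

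Hba-a2 had the lower TPM by the second quantification, in contrast to the other adult globins. The adult globins exceeded Myh6 by the second quantification in replicate 2, at 1.27 times its TPM, and stood at 0.282 times its TPM in replicate 1, against 0.730 times in replicate 2 and 0.161 times in replicate 1 by the first.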
